A study of Mus musculus with 9 samples.

Results

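The transcripts of 9 genes of G protein signalling and of a related small GTPase were followed through naive CD4+ T cells of mice in which IL-1b or NLRP3 had been blocked. They are 6 regulators of G protein signalling, Rgs1, Rgs2, Rgs3, Rgs10, Rgs14 and Rgs19, the small GTPase gene Gem, and the inhibitory alpha subunit genes Gnai2 and Gnai3. The genes were taken by name, all 9 of 9 matched a symbol among 55487 gene IDs, and all 9 were among the 13374 genes with enough counts to be tested. Rgs1, Rgs2 and Gem fell at least 10.1-fold in cells of mice given either agent, and Gnai3 and Rgs3 fell by smaller amounts. Rgs14 passed as slightly lower with the antibody alone, a call that depended on the scaling, and was lower with the antibody than with MCC950. Rgs10, Rgs19 and Gnai2 did not pass the test.

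Receptors for chemokines, sphingosine-1-phosphate and oxysterols on T cells couple to inhibitory (Gi) proteins. An occupied receptor loads the alpha subunit with GTP, and the free alpha and beta-gamma subunits then drive adhesion and migration and lower cyclic AMP until the alpha subunit hydrolyses its GTP. RGS proteins speed up that hydrolysis and so end the signal. Several RGS genes of lymphocytes are known as early response genes whose transcripts appear after receptor stimulation and decay quickly. Gem is no RGS gene: it belongs to the RGK family of Ras-related GTPases, is known to rise in activated T cells, and its protein inhibits voltage-gated calcium channels.

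Polyadenylated transcripts were sequenced in 9 libraries of splenic naive CD4+ T cells, helper cells that have not met antigen, of wild-type (WT) C57BL6/J mice. 3 came from mice with no treatment, 3 from mice given the neutralizing antibody anti-IL-1b in vivo on 10 consecutive days, and 3 from mice given MCC950, an inhibitor of the inflammasome sensor NLRP3, on 10 consecutive days. The labels name no vehicle or isotype control, age, sex, sort gate, batch or mouse of origin. A p-value therefore speaks of the scatter among libraries, and that scatter may be technical. Libraries held 17335367 to 21394797 expected counts in the untreated group, 14775375 to 16676626 with anti-IL-1b and 16769960 to 18497827 with MCC950. All 11 T cell markers, among them the CD3, CD4 and IL-7 receptor genes, were detected, and their summed level was 7500 to 7590, 7470 to 7520 and 7030 to 7070 CPM in the 3 groups. Here CPM is counts scaled to a common library total after TMM scaling, used to compare a gene between libraries, whereas TPM, which allows for transcript length, is used to compare genes with each other.

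Of all tested genes, 34.0% passed an adjusted p of 0.05 for anti-IL-1b against untreated, 15.4% as higher and 18.5% as lower. The corresponding shares were 36.8%, 17.7% and 19.1% for MCC950 against untreated. Of the 9 genes, 6 passed with the antibody and 5 with MCC950, each of them as lower. A called fall of at least 2-fold was less common, at 2.81% of tested genes with the antibody and 2.84% with MCC950, and 3 of the 9 genes had one in each comparison. The median log2 fold change of the 9 genes was -0.32 with the antibody and -0.27 with MCC950, beside 0.003 and 0.011 for all tested genes. Because the 9 genes were chosen with earlier results of these data known, these contrasts with all tested genes are a description and no test. Both comparisons use the same 3 untreated libraries and are therefore not independent of each other.

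**Figure D1:**
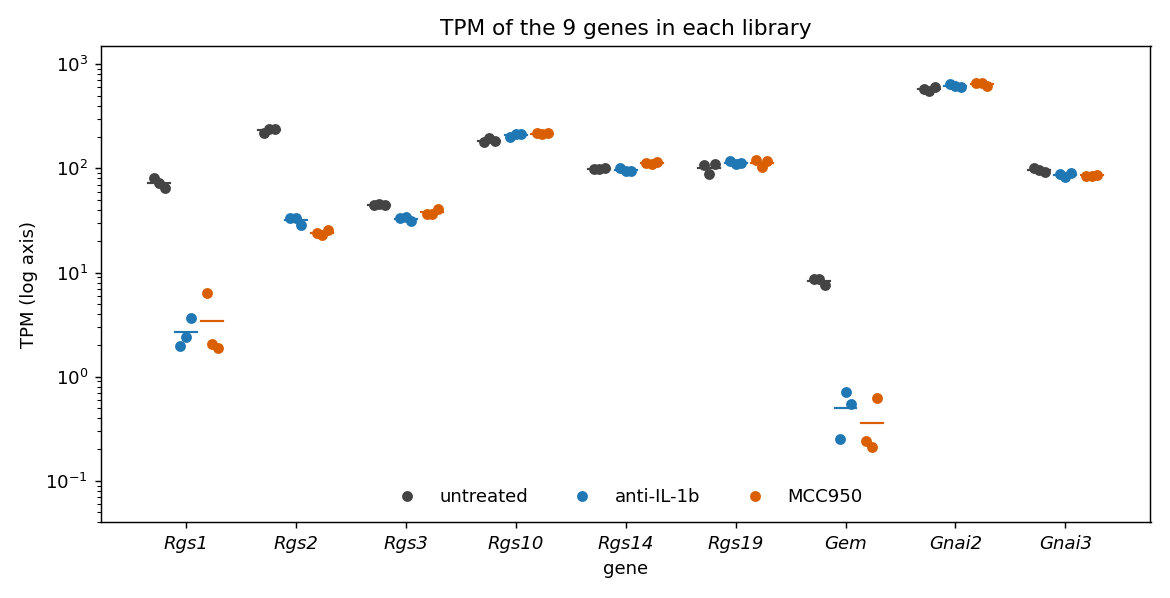
TPM (log axis) of the 9 genes, with a point for each library and a line at the mean of each group of 3 libraries. The untreated points of Rgs1, Rgs2 and Gem lie far above those of both treated groups, while the points of Rgs10, Rgs14, Rgs19, Gnai2 and Gnai3 stay within a narrow band.

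Rgs1 encodes a GTPase-activating protein known to restrain the migration of lymphocytes towards chemokines. It lies on chromosome 1 (mm10, 144242296 to 144249242, minus strand). Its level was 54.8, 46.3 and 46.0 CPM in the untreated libraries, 2.50, 3.09 and 2.56 CPM in the anti-IL-1b libraries and 4.44, 2.85 and 2.96 CPM in the MCC950 libraries. The lowest untreated library therefore stood above every treated library, and the highest treated library was MCC950 replicate 1. Rgs1 was 18.0-fold lower with the antibody (log2 fold change -4.17 ± 0.15 SE, adjusted p = 3.38e-24). With MCC950 it was 14.4-fold lower (-3.85 ± 0.15, adjusted p = 1.02e-23). The 2 treated groups overlapped, and their difference was -0.32 on the log2 scale with a 95% interval of -0.71 to 0.06 (adjusted p = 0.297). In a bulk library fewer cells that express a gene and less of its RNA per cell cannot be told apart, here or for the other genes.

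Rgs2, a small RGS protein known mainly as an inhibitor of Gq signals and for its rapid induction by stimuli, lies on the same chromosome (143999338 to 144004161, minus strand). It had the highest TPM of the 6 RGS genes in untreated cells. Its level there was 252, 267 and 261 CPM, whereas the anti-IL-1b libraries had 27.8, 22.9 and 26.0 CPM and the MCC950 libraries 18.7, 21.7 and 20.8 CPM. None of the 3 groups overlapped another. Rgs2 fell 10.1-fold with the antibody (-3.34 ± 0.06, adjusted p = 8.56e-35) and 12.7-fold with MCC950 (-3.67 ± 0.06, adjusted p = 7.22e-36). It was higher with the antibody than with MCC950 by 0.33 ± 0.07 on the log2 scale (adjusted p = 0.00145). In the comparison of both agents 13.2% of all tested genes passed, 6.13% as higher and 7.11% as lower with the antibody, and 3 of the 9 genes were among them, 1 as higher and 2 as lower.

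RefSeq promoters were given for 5 of the 9 genes (Rgs2, Rgs3, Rgs10, Rgs19 and Gnai3). The 250 bases before the start of Rgs2 and of Gnai3 are shown because Rgs2 changed most among these 5 and Gnai3 encodes a protein that RGS proteins act on. Both are from GRCm38.p6 and read 5′ to 3′ on the minus strand, at chr1:144004150-144004399 and chr3:108146153-108146402. Capitals mark the cyclic AMP response element half-site TGACG, on either strand, and the CCAAT box.
Rgs2: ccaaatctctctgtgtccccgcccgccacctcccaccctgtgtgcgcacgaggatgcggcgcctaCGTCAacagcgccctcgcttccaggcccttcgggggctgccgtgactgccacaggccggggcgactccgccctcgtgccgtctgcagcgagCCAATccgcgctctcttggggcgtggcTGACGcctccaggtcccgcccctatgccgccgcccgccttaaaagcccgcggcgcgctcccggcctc
Gnai3: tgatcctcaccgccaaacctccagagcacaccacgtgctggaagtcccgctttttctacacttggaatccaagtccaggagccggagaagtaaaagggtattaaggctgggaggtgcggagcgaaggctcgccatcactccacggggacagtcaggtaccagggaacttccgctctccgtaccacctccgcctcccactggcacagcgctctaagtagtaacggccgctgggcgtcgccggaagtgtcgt
The Rgs2 window held TGACG 2 times, beginning 185 and 67 bases before the start, the first of them on the opposite strand, and CCAAT once, beginning 94 bases before it. It also held the GC box GGGCGG 4 times, at 232, 119, 52 and 38 bases before the start. Neither TGACG nor CCAAT was found in the windows of Rgs3, Rgs10, Rgs19 or Gnai3, several of which have more than 1 start. Among 32841 promoter windows of the same length, 17.8% held TGACG, 33.9% CCAAT and 32.7% GGGCGG on either strand. The AP-1 site TGANTCA (6.75% of windows), the full element TGACGTCA (1.55%), which contains TGACG, and the heat shock core GAANNTTC (6.7%) had 0 matches in the windows of all 5 genes. A match of letters is a description of the window and no evidence of binding.

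Rgs1 and Rgs2 lie in a cluster of 5 RGS genes on the minus strand of chromosome 1. In order of position the cluster holds Rgs2, Rgs13, Rgs1, Rgs21 and Rgs18, with gaps of 134.5, 64.9, 267.4 and 185.0 kb. The other members of the cluster were nearly silent in these cells. Summed over 3 libraries, Rgs13 had 0 counts untreated, 0 with anti-IL-1b and 3 with MCC950, Rgs21 had 0 in each and Rgs18 had 0, 3 and 11. Rgs2 had 14494, 1229 and 1109 counts and Rgs1 had 2713, 130 and 184, so that in this cluster counts above a handful came from Rgs1 and Rgs2.

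Rgs3, on the plus strand of chromosome 4 (62559847 to 62704001), encodes several isoforms that also dampen chemokine responses. Untreated libraries had 84.7, 89.0 and 88.0 CPM, anti-IL-1b libraries 58.8, 59.1 and 58.5 CPM and MCC950 libraries 68.8, 69.0 and 73.8 CPM. The groups were fully separate, with the antibody lowest and MCC950 between. Rgs3 fell 1.48-fold with the antibody (-0.57 ± 0.06, adjusted p = 1.8e-10) and 1.24-fold with MCC950 (-0.31 ± 0.06, adjusted p = 3.07e-05). With library totals the falls were -0.44 and -0.19, both still past the threshold. The difference between the agents was -0.26 ± 0.06 (adjusted p = 0.00152). On the log2(TPM + 1) scale, where limma was used, the difference between the agents was -0.2 and did not pass (adjusted p = 0.144). Rgs3 was the only 1 of the 9 genes whose expected counts were not whole in all 9 libraries, which RSEM gives where reads are shared between genes.

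Rgs14 encodes a scaffold that joins an RGS domain to a Ras-binding domain and a GoLoco motif, which holds GDP-bound Gi subunits. It lies on chromosome 13 (55369732 to 55384687, plus strand). Its levels were 150, 152 and 153 CPM untreated, 141, 131 and 131 CPM with anti-IL-1b and 165, 158 and 164 CPM with MCC950. The antibody group was below the untreated group and the MCC950 group above it, without overlap. Rgs14 was lower with the antibody by 0.17 on the log2 scale (-0.17 ± 0.04, adjusted p = 0.00104). The difference of 0.10 with MCC950 did not pass (95% interval 0.02 to 0.18, adjusted p = 0.0567), while between the agents it was -0.27 ± 0.04 (adjusted p = 7.15e-06). The call with the antibody was lost with library totals in place of TMM scaling (-0.05, adjusted p = 0.41) and on log2(TPM + 1) values (-0.04, adjusted p = 0.548). With MCC950 the same 2 settings gave 0.21 and 0.18, both past the threshold, as did these 2 groups alone (adjusted p = 0.0337) and leaving out anti-IL-1b replicate 1 (adjusted p = 0.0461). The lower level with the antibody than with MCC950 was called under all settings tried.

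Rgs10, a small RGS protein of immune cells that acts on Gi subunits, lies on chromosome 7 (128373621 to 128418758, minus strand). It had 85.0, 92.7 and 85.7 CPM untreated, 84.1, 91.7 and 93.8 CPM with anti-IL-1b and 97.0, 95.2 and 95.8 CPM with MCC950. Only the MCC950 libraries were all above the untreated ones. The log2 difference was 0.03 with the antibody (95% interval -0.08 to 0.14, adjusted p = 0.694) and 0.13 with MCC950 (0.02 to 0.24, adjusted p = 0.0578). Neither passed, but with library totals (0.16 and 0.24) and on log2(TPM + 1) values (0.18 and 0.22) both passed. The MCC950 difference also passed with these 2 groups alone (adjusted p = 0.0421), without untreated replicate 2 (adjusted p = 0.0251) and without anti-IL-1b replicate 1 (adjusted p = 0.0462).

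Rgs19, also known as GAIP, a membrane-anchored regulator that binds Gi subunits, lies on chromosome 2 (181688419 to 181693977, minus strand). Its levels were 74.5, 73.1 and 76.6 CPM untreated, 82.5, 74.9 and 82.8 CPM with anti-IL-1b and 82.0, 76.5 and 86.0 CPM with MCC950. Each treated group overlapped the untreated group through its replicate 2. The log2 differences of 0.10 (95% interval -0.02 to 0.22, adjusted p = 0.199) and 0.12 (0.01 to 0.24, adjusted p = 0.0924) did not pass. Under library totals they were 0.23 and 0.24 and passed, while on log2(TPM + 1) values they were 0.16 and 0.16 and did not (adjusted p = 0.231 and 0.248). Without MCC950 replicate 2 the MCC950 difference was 0.17 and passed (adjusted p = 0.0411).

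**Figure D2:**
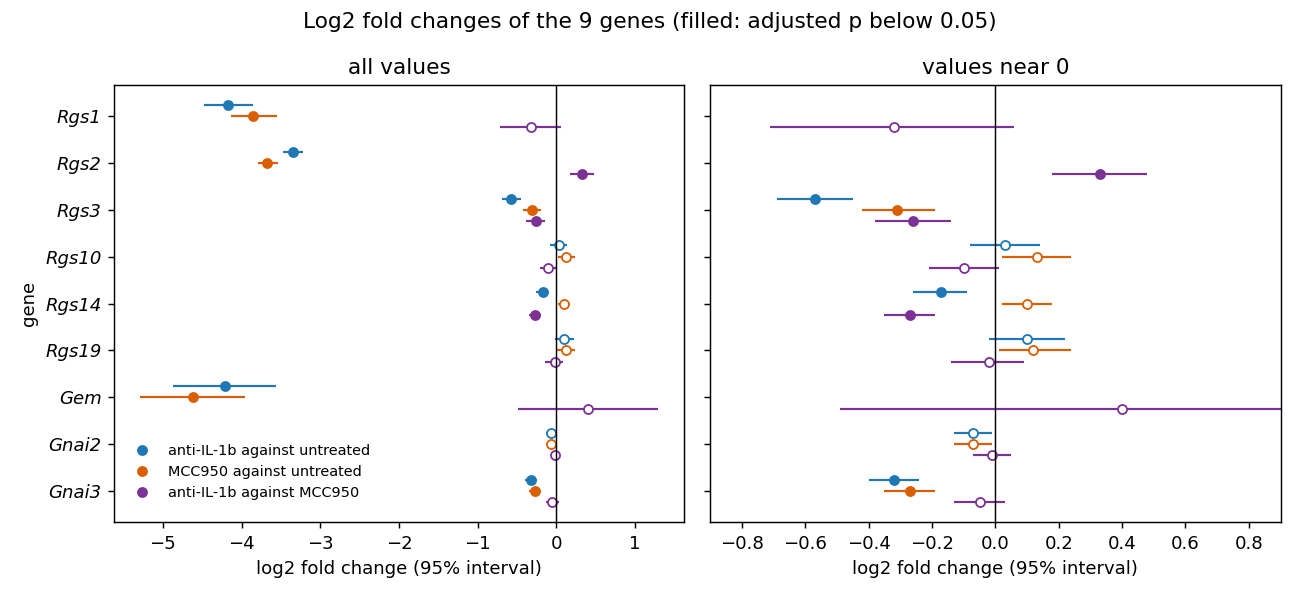
Log2 fold changes of the 9 genes with 95% intervals for the 3 comparisons, over the whole range at left and between -0.9 and 0.9 at right, with filled points where the adjusted p was below 0.05. Rgs1, Rgs2 and Gem lie between -3.34 and -4.62 against untreated, and every other gene within 0.57 of 0.

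Gnai2 and Gnai3 encode the Gi alpha subunits that transmit most chemokine signals of lymphocytes, and Gi subunits are among the proteins that RGS proteins act on. Gnai2, on chromosome 9 (107614125 to 107635367, minus strand), had 597, 599 and 624 CPM untreated, 586, 580 and 563 CPM with anti-IL-1b and 597, 559 and 583 CPM with MCC950. The differences of -0.07 (95% interval -0.13 to -0.01, adjusted p = 0.0502) and -0.07 (-0.13 to -0.01, adjusted p = 0.0798) did not pass, and with library totals they turned to 0.05 in both comparisons. On log2(TPM + 1) values Gnai2 was higher, by 0.11 with the antibody (adjusted p = 0.117) and by 0.17 with MCC950 (adjusted p = 0.0266). The direction for Gnai2 therefore depended on the scale.

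Gnai3, on chromosome 3 (108107280 to 108146146, minus strand), had 227, 220 and 210 CPM untreated. The anti-IL-1b libraries had 178, 167 and 183 CPM and the MCC950 libraries 181, 180 and 184 CPM, so each treated library was below each untreated one. Gnai3 fell 1.25-fold with the antibody (-0.32 ± 0.04, adjusted p = 2.15e-08) and 1.2-fold with MCC950 (-0.27 ± 0.04, adjusted p = 6.02e-07). The agents did not differ past the threshold (-0.05, 95% interval -0.13 to 0.03, adjusted p = 0.482). Library totals gave smaller falls of -0.19 and -0.15, both still past the threshold. The change was negative under all settings tried, but with the antibody it was -0.16 on log2(TPM + 1) values and narrowly missed the threshold (adjusted p = 0.0523).

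Gem lies on the plus strand of chromosome 4 (11704457 to 11714752). It was counted 187, 232 and 195 times in untreated libraries, 5, 13 and 10 times with anti-IL-1b and 5, 5 and 14 times with MCC950. These are 11.4, 11.5 and 10.2 CPM, 0.291, 0.838 and 0.656 CPM and 0.292, 0.264 and 0.768 CPM. No treated library reached a level near the untreated ones, and the treated values rest on few counts. Gem was 18.6-fold lower with the antibody (-4.21 ± 0.32, adjusted p = 7.7e-14) and 24.6-fold lower with MCC950 (-4.62 ± 0.33, adjusted p = 1e-14). Without MCC950 replicate 3, which held 14 of the counts, the MCC950 value was -5.27. The interval for the difference between the agents was wide, from -0.49 to 1.3 around 0.40 (adjusted p = 0.639). On log2(TPM + 1) values the falls were -2.64 and -2.79, since the pseudocount compresses low levels.

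Set in order by TPM, the 9 genes ran from Gnai2 at 578 ± 31.2 (SD, n = 3) to Gem at 8.3 ± 0.554 in untreated cells. Next came Rgs2 at 232 ± 11.9 and Rgs10 at 185 ± 8.23, each apart from its neighbours. Rgs19 at 102 ± 12.2, Rgs14 at 98.9 ± 1.41 and Gnai3 at 96.7 ± 4.06 followed, and neighbours in this trio overlapped. Rgs1 stood at 72.6 ± 7.83 and Rgs3 at 44.9 ± 0.731 TPM. In both treated groups Rgs2 was in position 7, at 31.9 ± 2.98 TPM with anti-IL-1b and 24.1 ± 1.37 TPM with MCC950, and Rgs10 was second at 209 ± 8.55 and 216 ± 1.55 TPM. Rgs2 overlapped Rgs3 (32.8 ± 1.27 TPM) with anti-IL-1b but lay below it (37.9 ± 2.69 TPM) with MCC950. Rgs1, at 2.70 ± 0.878 and 3.42 ± 2.51 TPM, and Gem, at 0.503 ± 0.234 and 0.357 ± 0.229 TPM, closed the order in both.

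The makeup of the RGS transcripts moved accordingly. Summed over the 6 genes, TPM was 727, 740 and 739 in untreated libraries, 486, 486 and 486 with anti-IL-1b and 517, 487 and 516 with MCC950. Rgs2 made up 31.6 ± 1.34% of that sum in untreated cells but 6.57 ± 0.613% with anti-IL-1b and 4.76 ± 0.161% with MCC950. Rgs1 accounted for 9.88 ± 1.14%, 0.555 ± 0.181% and 0.67 ± 0.479%. The other 4 genes together were at 431 ± 5.92, 451 ± 2.27 and 479 ± 14.7 TPM, so the lower sum came mainly from Rgs1 and Rgs2. Within the 4, Rgs3 went from 44.9 to 32.8 and 37.9 TPM. The higher sum of the 4 was not tested. On log2(TPM + 1) values the median change over all tested genes was itself 0.137 with the antibody and 0.09 with MCC950. Rgs10 became the most abundant of the 6, with its share going from 25.1 ± 0.966% to 43.0 ± 1.78% and 42.6 ± 1.15%.

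Set against the Gi alpha subunits, the 6 RGS genes together had 1.09 ± 0.0499 transcripts for each transcript of Gnai2 and Gnai3 in untreated cells. That ratio was 0.684 ± 0.0248 with anti-IL-1b and 0.688 ± 0.0382 with MCC950, and no treated library overlapped the untreated ones. The ratio of Gnai2 to Gnai3 TPM was 5.99 ± 0.527 untreated, 7.21 ± 0.482 with anti-IL-1b and 7.59 ± 0.358 with MCC950. These ratios were not tested, and those that involve TPM carry the isoform lengths that RSEM assigned.

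**Figure D3:**
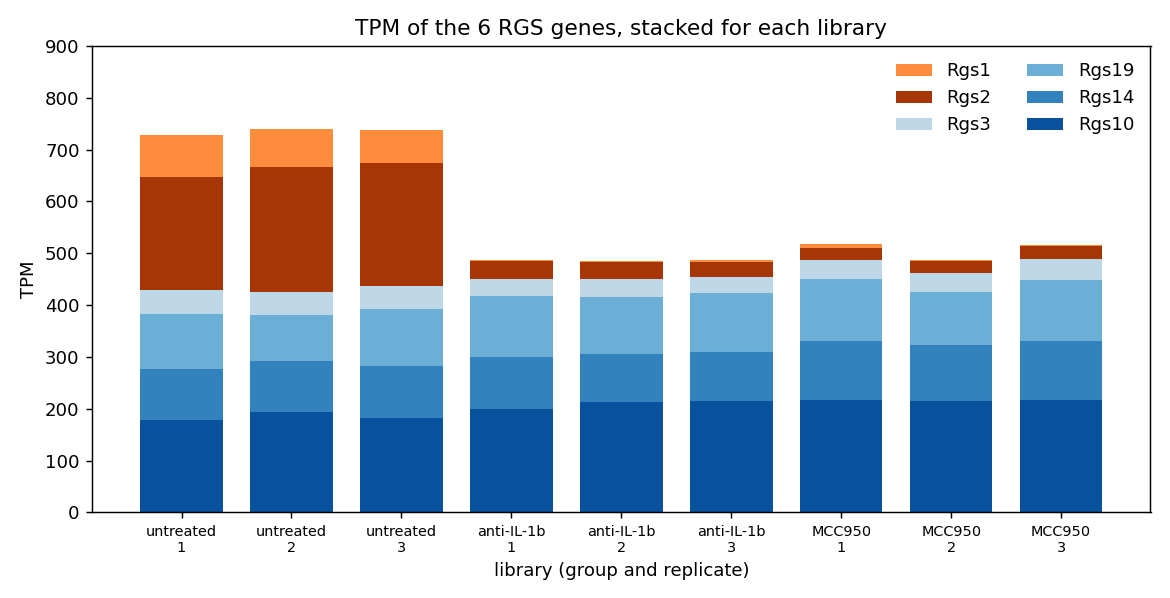
TPM of Rgs1, Rgs2, Rgs3, Rgs10, Rgs14 and Rgs19 stacked for each library, in 3 groups of 3. In the treated libraries the orange Rgs1 segment nearly vanishes and the brown Rgs2 segment shrinks. The total goes from between 727 and 740 TPM to between 486 and 517 TPM.

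Those lengths differed between groups for some of the genes. GENCODE lists 9 isoforms for Rgs1, from 333 to 5843 bases, of which 2 are protein coding, 4 are marked for nonsense-mediated decay and 3 retain an intron. The mean length that RSEM assigned to Rgs1 transcripts was 1145, 1074 and 1175 bases in untreated libraries, 2101, 2137 and 1260 bases with anti-IL-1b and 1225, 2222 and 2471 bases with MCC950. Every treated library was above the untreated range, but on 39 to 76 counts per library. The Rgs1 falls were accordingly larger by TPM, at -4.74 and -4.59 on the log2(TPM + 0.1) scale, than by counts.

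Rgs2 moved the other way, with 1774, 1705 and 1697 bases untreated, 1458, 1238 and 1585 with anti-IL-1b and 1330, 1594 and 1396 with MCC950, and its isoforms run from 588 to 3021 bases. On the log2(TPM + 0.1) scale its falls were -2.86 and -3.26. Gnai2 averaged 1633 ± 49.0, 1604 ± 34.6 and 1503 ± 65.8 bases in the 3 groups. Gnai3 has 1 annotated isoform of 3262 bases, so its TPM carries no such shift. The files give these mean lengths but not the levels of single isoforms.

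Motifs of unstable transcripts were counted in the annotated 3' untranslated regions. The pentamer ATTTA, the core of AU-rich elements that promote mRNA decay, occurred 10 times in the 3006 bases of Rgs1, 5 times in the 2342 bases of Rgs2 and 4 times in the 999 bases of Gem. As many or more were found in 5.89%, 20.3% and 26.9% of 10982 tested genes. Per kilobase the values were 4.0 for Gem, 3.33 for Rgs1, 2.59 for Rgs3, 2.13 for Rgs2 and 1.95 for Gnai3, beside a median of 1.42 over the 9734 genes with at least 200 bases. Rates as high were found in 10.1%, 16.3%, 26.1%, 34.0% and 37.9% of those genes. Rgs19 and Gnai2, which did not pass against untreated, had 1.46 and 1.0 per kilobase, with rates as high in 48.9% and 60.1%. Gnai3 had 4 in 2056 bases, Rgs3 had 2, Rgs19 and Gnai2 had 1 each, and Rgs10 and Rgs14 had 0. The nonamer TTATTTATT, which contains ATTTA, occurred once in Rgs1 and once in Rgs3, and 7.46% of tested genes held it.

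Of the 15 other RGS genes of the mouse, 8 had 0 counts in all 9 libraries and 4 had at most 7 counts in a library. The 3 others were tested. Rgs16, a target of activation signals in lymphocytes and also on chromosome 1 (153740349 to 153745468, plus strand), had 2.56, 2.67 and 1.41 CPM untreated, 0.466, 0.322 and 0.525 CPM with anti-IL-1b and 0.642, 0.423 and 0.659 CPM with MCC950. It fell in both comparisons (-2.32 ± 0.54, adjusted p = 0.00079, and -1.94 ± 0.52, adjusted p = 0.00294) on 5 to 54 counts per library. Rgs11, better known from the nervous system, rose from 23.9 ± 1.51 CPM to 37.5 ± 3.07 and 35.6 ± 4.77 CPM (0.65 ± 0.09, adjusted p = 4.59e-07, and 0.58 ± 0.09, adjusted p = 3.69e-06). Rgs12 did not pass.

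Among other G protein alpha subunits, 7 of 11 were tested, of which 0 rose and 2 fell with the antibody and 0 rose and 1 fell with MCC950. For this list and those below, the shares over all tested genes were 15.4% higher and 18.5% lower with the antibody. With MCC950 they were 17.7% and 19.1%. No list was tested as a set. Gna13, an alpha subunit of another class than Gi, fell from 256 ± 7.30 to 185 ± 3.82 and 197 ± 15.8 CPM (-0.47 ± 0.04, adjusted p = 3.44e-11, and -0.38 ± 0.04, adjusted p = 4.39e-09). Gnas, the stimulatory subunit, was at 348 ± 8.22, 328 ± 10.3 and 342 ± 6.43 CPM, and its small call with the antibody (-0.09 ± 0.03, adjusted p = 0.0385) became 0.04 under library totals. Gnaq, the Gq subunit on which Rgs2 is best known to act, was low at 3.74 ± 1.17, 5.19 ± 0.586 and 5.46 ± 0.803 CPM and did not pass. Without untreated replicate 2 Gnaq passed as higher, at 0.73 and 0.80, and by TPM its differences were negative.

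Of 15 beta and gamma subunit genes 9 were tested, and 1 fell with each agent, Gnb1 with the antibody (-0.13 ± 0.04, adjusted p = 0.00788) and Gng5 with MCC950 (-0.28 ± 0.08, adjusted p = 0.00373). Neither call held under library totals, and Gnb2 did not pass in either comparison. Of the 5 genes for GoLoco proteins and Ric8 chaperones, 2 fell with the antibody, while 2 rose and 2 fell with MCC950. Ric8b, a chaperone of alpha subunits, fell from 34.5 ± 2.35 to 25.7 ± 1.08 and 26.1 ± 3.25 CPM (-0.43 ± 0.09, adjusted p = 0.000401, and -0.40 ± 0.09, adjusted p = 0.000667). Gpsm1 and Gpsm3, whose GoLoco motifs hold Gi subunits, rose with MCC950 by 0.49 ± 0.14 (adjusted p = 0.00468) and 0.17 ± 0.05 (adjusted p = 0.00923). With the antibody their values of 0.11 and -0.03 did not pass. Gpsm2, of the same list, fell with both agents (-0.40 and -0.37, both past the threshold).

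Receptor kinases and arrestins switch off receptors rather than G proteins. Of 7 tested, 3 rose and 0 fell with the antibody and 4 rose and 0 fell with MCC950. Over all tested genes, 15.4% rose and 18.5% fell with the antibody, and 17.7% and 19.1% with MCC950. Grk6 rose from 537 ± 14.2 to 584 ± 15.9 and 638 ± 11.3 CPM (0.12 ± 0.03, adjusted p = 0.00109, and 0.25 ± 0.03, adjusted p = 5.25e-09). Arrb1 went from 112 ± 3.29 to 132 ± 4.05 and 128 ± 4.17 CPM (0.23 ± 0.05, adjusted p = 7.57e-05, and 0.20 ± 0.04, adjusted p = 0.000524). With MCC950, Arrb2 and Grk2 rose by 0.16 ± 0.04 (adjusted p = 0.00289) and 0.10 ± 0.03 (adjusted p = 0.00436), and their values with the antibody, 0.01 and 0.04, did not pass.

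Of 24 chemoattractant and lipid receptors that couple to Gi, 15 were tested. With the antibody 4 rose and 6 fell, and with MCC950 2 rose and 6 fell. Among the 4 was Cxcr2 (2.21 with the antibody, -0.5 and not called with MCC950), which is also in the list of neutrophil markers. Cxcr4, the receptor for CXCL12, fell from 372 ± 1.10 to 31.9 ± 1.90 and 31.6 ± 1.68 CPM (-3.54 ± 0.05 and -3.56 ± 0.05, adjusted p = 4.45e-39 and 2.39e-39). Gpr183, the oxysterol receptor, fell from 232 ± 4.54 to 76.1 ± 0.394 and 83.2 ± 3.94 CPM. S1pr1, needed to leave lymphoid organs, was 816 ± 5.47, 574 ± 9.02 and 540 ± 6.62 CPM, and Ccr7, needed to enter lymph nodes, was 652 ± 12.4, 462 ± 6.92 and 444 ± 3.70 CPM. Both fell in both comparisons, with log2 fold changes of -0.51 and -0.60 for S1pr1 and -0.50 and -0.55 for Ccr7 (adjusted p at most 1.05e-17). Among these 4 receptors the fall of Cxcr4 came closest in size to those of Rgs1 and Rgs2. Ccr8, of the same list, also fell far, with log2 fold changes of -3.38 (antibody) and -2.34 (MCC950), both past the threshold.

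Receptors that couple to Gs, which raises cyclic AMP, numbered 7 tested of 9, and 4 fell and 0 rose with the antibody while 4 fell and 1 rose with MCC950. Ptger4 went from 76.2 ± 3.52 to 36.6 ± 2.08 and 40.3 ± 0.370 CPM (-1.06 ± 0.07 and -0.92 ± 0.07). Adora2a fell by 0.50 and 0.27 on the log2 scale (adjusted p = 0.000219 and 0.0347), the latter with overlapping groups. Of 6 tested adenylyl cyclases, the enzymes that Gs stimulates and Gi inhibits, 3 rose and 0 fell with the antibody and 2 rose and 0 fell with MCC950. Adcy6 rose by 0.38 ± 0.04 and 0.49 ± 0.04 (adjusted p = 4.33e-09 and 4.97e-12), and Adcy7 by 0.23 ± 0.03 and 0.29 ± 0.03 (adjusted p = 1.98e-08 and 6.27e-11).

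Effectors by which Gi drives T cell migration split, with 4 of 14 tested genes higher and 5 lower with the antibody and 5 higher and 5 lower with MCC950. Rasgrp2, an activator of Rap1, rose by 0.26 and 0.33, and the LFA-1 alpha chain gene Itgal by 0.27 and 0.26 (adjusted p at most 5.78e-10). Rap1b fell by 0.30 and 0.20 (adjusted p = 4.66e-10 and 3.95e-06). Of the RGK GTPases and partners of Gem, 8 of 11 were tested, with 1 higher and 2 lower with the antibody and 1 higher and 3 lower with MCC950. Rrad, another RGK GTPase gene, fell from 94.1 ± 2.31 to 22.7 ± 2.29 and 26.0 ± 1.43 CPM (-2.05 ± 0.08, adjusted p = 5.85e-24, and -1.86 ± 0.07, adjusted p = 6.93e-23). Gmip, whose product binds the Gem protein, rose by 0.20 and 0.22 (adjusted p = 3.18e-05 and 1.07e-05).

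**Figure D4:**
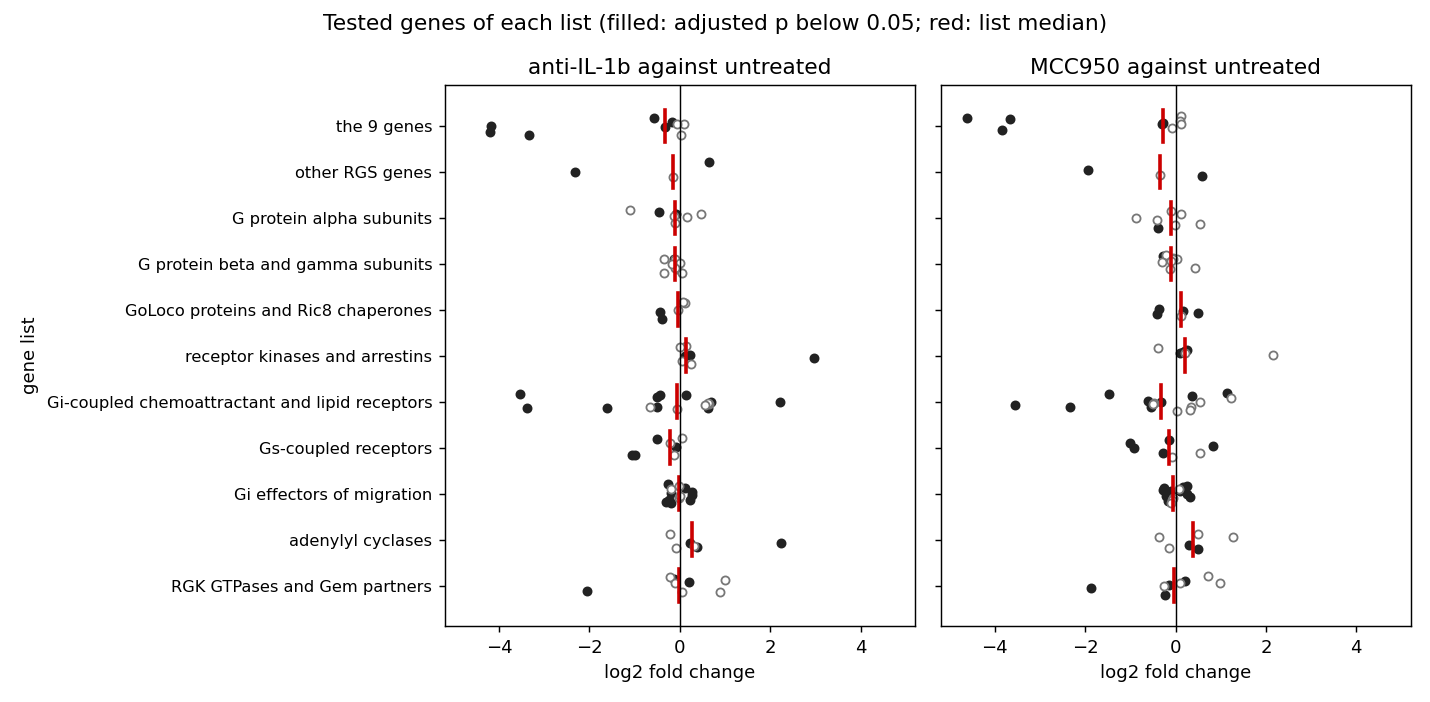
Log2 fold changes of the tested genes of each list, with filled points where the adjusted p was below 0.05 and a red bar at the list median, for anti-IL-1b (left) and MCC950 (right) against untreated. Besides Rgs1, Rgs2 and Gem, the called genes far to the left of 0 in both panels include Cxcr4, Ccr8, Rrad and Rgs16.

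Across all tested genes, Rgs1, Rgs2 and Gem stood near the bottom of the range of changes. Counted from the largest fall among 13374 genes, Gem was in position 28, Rgs1 in position 30 and Rgs2 in position 64 with the antibody. With MCC950 they were in positions 26, 44 and 56. Profiles over the 9 libraries were then compared by the root mean square distance of centred log2 CPM among 9170 genes. The nearest genes to Rgs2 were Cxcr4 (distance 0.136), Junb (0.137) and Klf6 (0.166), the latter pair being early response transcription factor genes. Cxcr4 was at 372, 31.9 and 31.6 CPM in the 3 groups and Rgs2 at 260, 25.6 and 20.4 CPM, so both kept about the same proportion of their untreated level.

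For Rgs1 the nearest were Fosl2 (0.212), an AP-1 subunit gene, Plk2 (0.306), a kinase gene of early responses, and Cxcr4 (0.331). For Gem they were Maff (0.41), a small Maf factor gene, Tnfaip3 (0.435), which encodes the NF-kB inhibitor A20, and Plk2 (0.47). Among the 9 genes, Rgs2 was in position 11 from Rgs1 and Gem in position 25. From Rgs2, Rgs1 was in position 28 and Gem in position 47, and from Gem, Rgs1 was in position 10 and Rgs2 in position 14. These distances describe 9 libraries in which treated and untreated cells differ at 34.0% and 36.8% of tested genes, and they carry no test.

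**Figure D5:**
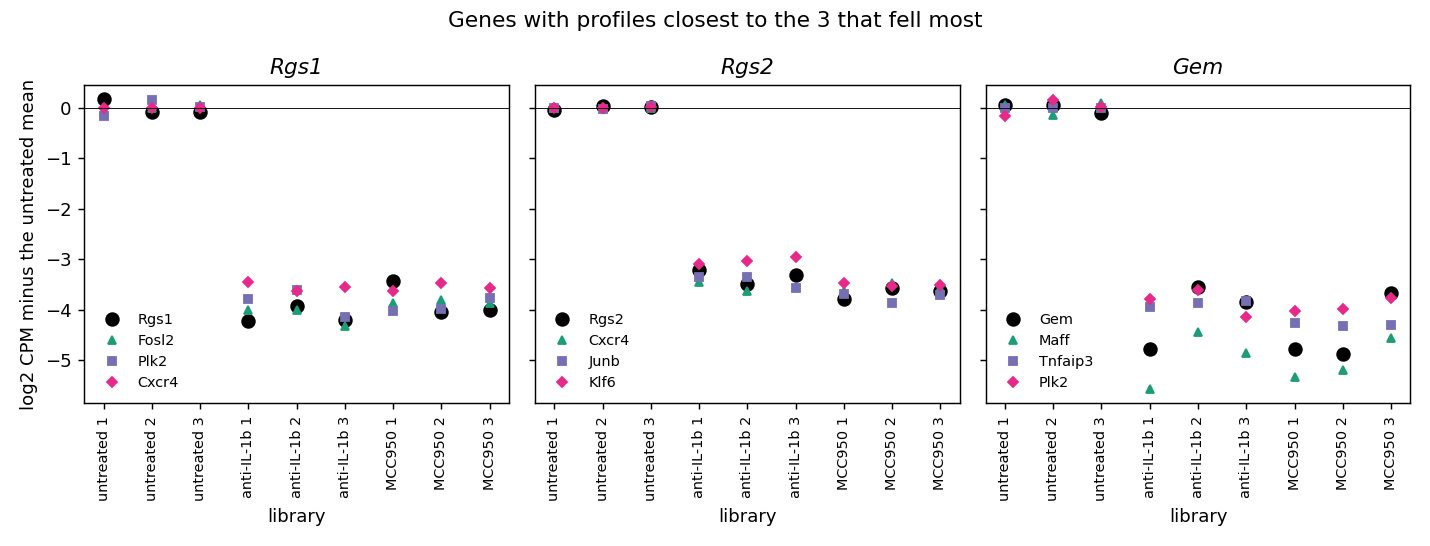
Log2 CPM relative to the untreated mean in each of the 9 libraries for Rgs1, Rgs2 and Gem (black circles) and the 3 genes with the closest profiles to each. The treated libraries lie between -3 and -5 for nearly all of these genes, and the Gem profile is the most scattered.

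Other transcripts moved with the same split of libraries. Of 18 immediate early and heat shock genes, 17 fell in each comparison, with medians of -2.37 and -2.24, and their summed level was 26600 to 27000 CPM in untreated libraries, 6200 to 6400 with anti-IL-1b and 7080 to 7260 with MCC950. Such genes are known to respond to handling and tissue dissociation as well as to signals in vivo, and their part in the falls of Rgs1, Rgs2 and Gem was not tested. Many markers of other cells went up. Of 11 tested B cell markers, 10 rose in each comparison, with sums of 8.78 to 9.94, 40.3 to 43.0 and 42.6 to 49.3 CPM. Of 8 tested neutrophil markers, 8 rose with the antibody and 7 with MCC950. The neutrophil markers summed to 1.10 to 1.34 CPM untreated, 33.2 to 34.9 CPM with anti-IL-1b and 17.1 to 19.4 CPM with MCC950. In all untreated libraries 8 of 13 neutrophil markers, S100a8, Ly6g and Mpo among them, were at 0. Of those at 0, S100a8, Ltf and Retnlg passed the count filter through treated libraries alone. Against untreated they could only be called higher, so the tally of rises is partly fixed by the filter.

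Monocyte and dendritic cell markers summed to at most 9.99, 22.5 and 23.7 CPM (of 7 tested, 4 rose and 1 fell with the antibody and 4 rose with MCC950). Cytotoxic and NK cell markers summed to 61.6 to 68.9, 89.9 to 98.6 and 94.7 to 99.0 CPM (of 7 tested, 3 rose and 1 fell, then 3 rose). Platelet and red cell markers summed to 2.13 to 3.61, 7.74 to 8.57 and 9.56 to 11.5 CPM (4 of 5 tested rose in both). The 4 were the haemoglobin genes Hba-a1, Hba-a2, Hbb-bs and Hbb-bt. Itga2b, the only platelet marker tested, did not pass (0.31 and -0.02). Hba-a1, Hbb-bs and Hbb-bt had no counts in untreated libraries and passed the count filter through treated ones alone. Against untreated they could only be called higher. Among the cytotoxic markers, the CD8 chain genes rose, with each treated library above each untreated one. Cd8a went from 0.97 to 19.4 CPM with the antibody (adjusted p = 1.92e-21) and to 19.7 CPM with MCC950 (adjusted p = 1.46e-21). Cd8b1 went from 12.5 to 26.3 and 23.1 CPM. Prf1, of the same list, fell from 45.9 to 36.9 CPM with the antibody (-0.31 ± 0.08, adjusted p = 0.00118). With MCC950 it was at 42.5 CPM and did not pass (-0.11, adjusted p = 0.266). The cytotoxic list therefore did not rise as a whole. The part of other cell types in the changes of the 9 genes was not tested.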

How the data were processed

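The 9 RNA-seq libraries were put into 3 groups of 3 by their labels. RNAiso PLUS, NucleoSpin and a NEBNext Ultra II Directional kit were used for RNA and libraries, per the labels' protocols. The submitters' processing notes name STAR, RSEM and mm10, without versions, and give no strand setting for the counting. The deposited expected counts are RSEM's estimated reads per gene, not normalized, per the file headers. TPM as deposited is relative to effective length and was scaled to a common total by the authors, per the file headers, and the deposited lengths are means over isoforms. No deposited FPKM value was used.

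Gene IDs were matched to GENCODE M21 (GRCm38, equal to mm10), where 99.4% had a symbol. The test was edgeR's quasi-likelihood test on rounded expected counts (edgeR 4.0.16, R 4.3.3, robust, TMM, filterByExpr) with a fit of 3 group means over 9 libraries. P-values are two-sided and adjusted by Benjamini-Hochberg over 13374 genes, with a threshold of 0.05. SE is the log2 fold change over the root of F. The common coefficient of variation was 0.0707. Replicates of a group differed beyond sampling noise (chi-square per degree of freedom 3.75 to 5.27). The test was tried on simulated counts. Per TMM, factors were 0.945 to 0.947, 1.031 to 1.035 and 1.023 to 1.024 for untreated, anti-IL-1b and MCC950 libraries.

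The 9 genes and the 17 lists of other genes were chosen with earlier results of these data known. Named from each pathway list were up to 3 genes with the smallest adjusted p among those past the threshold with mean log2 CPM of at least 2, and the checks Ccr7, Cxcr4, S1pr1, Rgs16, Gnas, Gnaq, Gna13, Gnb1, Gnb2, Grk2, Grk6 and Arrb2. Of the genes that this rule names, 3 are not reported here, while counts of lists keep all members. Rgs12, Ccr8, Gpsm2, Cxcr2, Itga2b, the haemoglobin genes and the single neutrophil markers were named after their values were seen. Profile neighbours were the 3 closest genes with a symbol (no predicted genes, pseudogenes or receptor segments) and mean log2 CPM of at least 2, for members whose group means differed by more than 1 on the log2 scale. Overlapping genes held few counts: Gm15503 averaged 18.4 beside 1601 for Rgs10, and Gm19721 56.4 beside 10320 for Gnai2. Alternatives were RLE scaling, library totals, a filter of 1 count, the replicate number as a block, each pair of groups alone, DESeq2 1.42.0, limma 3.58.1 on log2(TPM + 1) and log2(TPM + 0.1), and leaving out each library.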

Additional observations from a re-analysis of the deposited data

How the results depend on the processing

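The falls of Rgs1, Rgs2, Rgs3 and Gem against untreated were called under all alternatives run. TMM is the scaling that matters most for small changes: with library totals the median over all genes was 0.13 with the antibody and 0.125 with MCC950, and the calls split into 3929 higher and 1344 lower and into 4009 and 1587, beside 2066 and 2479 and 2369 and 2552 with TMM. On log2(TPM + 1) values the split was 2645 higher and 865 lower and 2169 and 1094, and between the agents 363 and 209 beside 820 and 951. For MCC950, 8 of the 9 genes were called under library totals and on both TPM scales, beside 5 in the edgeR fit, and 3263 genes in all passed on log2(TPM + 1) beside 4921. Between the agents 572 genes passed on log2(TPM + 1) and 565 on log2(TPM + 0.1), beside 1771. The replicate block left 6, 5 and 3 of the 9 genes called and changed the counts of all genes to 4483, 4855 and 1704. It changed no call of the 9 genes. Deviations of same-numbered libraries from their group means correlated at -0.00967 to 0.0625. These correlations include genes with few counts and cannot decide whether the numbers name pairs, which the labels do not say. Leaving out each library in turn left 6 to 7 of the 9 genes called with the antibody, 5 to 7 with MCC950 and 3 between the agents.

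Values that reversed were all under 0.6 in size in the edgeR fit. For Gnai2, the value was 0.05 under library totals against untreated with each agent, 0.11 (antibody) and 0.17 (MCC950) by TPM, and 0.01 under library totals between the agents, with -0.04 to 0.01 on leaving out a library. Between the agents, Rgs19 was 0.0037 and 0.0038 by TPM, with -0.07 to 0.02 on leaving out a library, and Gnai3 was 0.01 by TPM. For the antibody, library totals turned Gnas to 0.04, Gng5 to 0.02, Gnb2 to 0.06 and Gpsm3 to 0.10. TPM gave 0.06, 0.08, 0.08 and 0.23 for these in turn, 0.03 for Gnb1, and -0.42 and -0.56 for Gnaq. For MCC950, library totals gave 0.09 for Gnas and 0.05 for Gnb1, and TPM gave 0.12 and 0.13, with -0.20 and -0.24 for Gnaq. Leaving out a library with the antibody spanned -0.01 to 0.24 for Gpsm1, -0.12 to 0.02 for Gpsm3 and -0.03 to 0.05 for Arrb2. The cause of these differences was not tested, apart from the lengths and scaling factors that enter by construction. For the 9 genes, 418 recomputed values kept direction and call, 19 passed in addition, 7 lost the call and 15 reversed. Counting error limits Gem, with 5 to 14 counts in treated libraries, more than the other genes.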
